A study of Mus musculus with 26 samples.

Results

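Zfp352, Sp110, Zfp750, Arg2, Fgf1 and Cml2 are 6 mouse genes outside the large tandem families of early embryos. They were taken by symbol, all 6 being among the 24412 gene symbols listed in each table of the series. RNA was measured as TPM (a share of the library, corrected for transcript length, with about the same total in every library) in 26 libraries of pooled C57BL/6J oocytes or embryos, in 13 groups of 2. The mDKO groups came from females with Zp3-Cre, which drives recombination as oocytes grow, and floxed copies of Kdm3a and Kdm3b (f/f). Their oocytes, fertilised in vitro with wild-type sperm, gave embryos without maternal KDM3A and KDM3B that still receive a paternal copy of each gene.

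Without injection, mDKO and control were sampled at MII (mature eggs before fertilisation), E2C (the early 2-cell stage) and L2C (the late 2-cell stage). Injected E2C embryos were mDKO with Kdm3aWT, mDKO with Kdm3aHA, mDKO with mCherry and control with mCherry. Injected 4-cell embryos (4C) were wild type with Kdm3aWT, Kdm3aHA or mCherry. The labels do not say whether control females carried the Cre, what HA stands for or how much was injected. A pool held 12 to 20 embryos, or 20 at L2C, so that in a pool fewer embryos with a transcript and less of it per embryo cannot be told apart.

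In the mouse, the embryo begins to transcribe its own genome in a minor wave that reaches the early 2-cell stage, followed by a major wave in the late 2-cell embryo, while RNA stored in the oocyte is degraded. A transcript found at E2C can therefore be new, inherited from the oocyte or both. KDM3A and KDM3B remove methyl groups from lysine 9 of histone H3, whose dimethylated form marks silent chromatin, and the series asks about that mark in the minor wave.

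The label of early 2-cell genes held for some of the 6 genes and not for others. Zfp352 alone started at E2C: it was at 0.0952 and 0 TPM in the MII control libraries and above 50 TPM in both E2C control libraries, where a gene counted as starting when it was under 1 TPM at MII and at or over 1 TPM at E2C. The 5 other genes were already at 1 TPM or more in both MII control libraries. The mean of the E2C control libraries was 18.8 times that of the MII control libraries for Arg2, 7.10 times for Cml2 and 5.86 times for Sp110. It was 0.680 times for Fgf1 and 0.299 times for Zfp750, so that the levels of these genes were lower at E2C than in the oocyte, against the label. These ratios are a description, because MII libraries were made with another kit than E2C libraries, and stage and kit cannot be told apart.

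On GRCm38.p6, the assembly that mm10 represents, Zfp352 lies on the plus strand of chromosome 4 from 90218820 to 90225687. Arg2 is on the plus strand of chromosome 12 from 79130788 to 79156301. On the minus strand are Sp110 on chromosome 1 from 85570735 to 85610850, Zfp750 on chromosome 11 from 121510976 to 121519342, Fgf1 on chromosome 18 from 38838672 to 38929470 and Cml2 on chromosome 6 from 85865422 to 85869137. Genes on the opposite strand overlap Arg2 (Vti1b and Gm48780), Fgf1 (AC110730.1), Sp110 (G530012D18Rik) and Zfp750 (Tbcd). The strand setting of the counting was not stated, so reads of such partners may not have been separated.

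The label of one copy per genome was set against GENCODE M21 transcripts, counting another gene as a near copy when at least 200 bases aligned at 90% identity or more. Zfp750, Arg2 and Fgf1 had no near copy. Zfp352 matched the pseudogene Zfp353-ps at 95.2% over 1650 bases and a stretch of Enah transcript at 96.5% over 282 bases. Sp110 matched 5 other genes, among them the pseudogene Gm16026 at 97.6% over 2609 bases and C130026I21Rik at 98.6% over 559 bases. Cml2, now named Nat8f2, matched its neighbour in the family, Nat8f4, at 93.1% over 1491 bases. The values of Zfp352, Sp110 and Cml2 are uncertain to the extent that reads were shared with these copies. Of these copies, C130026I21Rik and Enah are listed in the tables under their GENCODE names. Former names of the other copies were not looked up.

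RefSeq promoter windows for GRCm38.p6, from 250 bases before to 50 bases after a transcription start, were compared for 3 of the 6 genes. The remaining genes were not part of this comparison, whether or not a window exists for them. The windows below are shown because the gene that started at E2C carries a short repeat. The windows of the other 2 genes compared hold it less often or not at all. Capitals mark TAATCC or its reverse complement GGATTA, the core letters bound by homeodomain proteins of the bicoid type such as OTX2 and CRX. Zfp352 is chr4:90218570-90218869 on the plus strand, Sp110 chr1:85603842-85604141 on the minus strand, upstream of another start of the gene, and Cml2 chr6:85869088-85869387 on the minus strand. The Sp110 window lies inside the span of that gene given above, not at its 5′ end. Each is printed 5′ to 3′ along its gene.
Zfp352: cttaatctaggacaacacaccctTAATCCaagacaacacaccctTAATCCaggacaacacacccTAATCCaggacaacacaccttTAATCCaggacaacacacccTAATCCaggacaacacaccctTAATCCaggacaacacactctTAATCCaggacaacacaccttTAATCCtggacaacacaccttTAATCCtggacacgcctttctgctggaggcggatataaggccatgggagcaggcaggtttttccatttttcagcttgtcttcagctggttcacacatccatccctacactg
Sp110: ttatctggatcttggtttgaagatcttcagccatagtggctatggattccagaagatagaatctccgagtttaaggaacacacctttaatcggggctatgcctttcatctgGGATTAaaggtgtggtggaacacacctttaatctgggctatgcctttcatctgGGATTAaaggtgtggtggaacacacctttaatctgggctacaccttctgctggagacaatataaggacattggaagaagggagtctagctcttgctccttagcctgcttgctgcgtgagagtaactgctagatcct
Cml2: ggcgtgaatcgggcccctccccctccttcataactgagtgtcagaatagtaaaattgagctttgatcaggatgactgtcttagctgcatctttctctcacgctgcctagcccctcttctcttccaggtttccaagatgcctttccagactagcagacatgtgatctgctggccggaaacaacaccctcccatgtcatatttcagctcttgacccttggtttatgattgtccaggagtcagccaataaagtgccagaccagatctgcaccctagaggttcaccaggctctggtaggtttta

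The Zfp352 window holds TAATCC 9 times, always on the strand of the gene and at steps of 20 to 21 bases. Searched on both strands in the 32851 RefSeq promoter windows, TAATCC occurs in 7.06%, and 1 window, that of Zfp352, holds it 5 times or more. The upstream Sp110 window holds it 2 times, 0.359% of windows holding it as often or more, and the Cml2 window does not hold it. The overlapping letters TTAATC occur 8 times in the Zfp352 window and 5 times in the upstream Sp110 window, and 3 of the 32851 windows hold them 5 times or more. A second Sp110 window, chr1:85598761-85599060, which is not printed here, holds TAATCC 1 time and TTAATC 1 time. Of all windows, 7.06% hold TAATCC and 7.43% hold TTAATC at least 1 time. The longest run of letters common to the Zfp352 window and the upstream Sp110 window is AACACACCTTTAATC, which 21 windows hold. These letters were chosen after the repeat had been seen, and a match is a description of the sequence, not a binding site.

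Zfp352, Zfp750 and Sp110 encode nuclear proteins. Zfp352 codes for a zinc finger protein and is in common use as a marker of 2-cell embryos. Its level was 0 and 0 TPM in MII mDKO oocytes, against 0.0952 and 0 in MII control. At E2C it was 17.3 and 20.5 TPM in mDKO, against 53.4 and 65.2 in control, and at L2C 161 and 161 in mDKO, against 105 and 78.7 in control. The mDKO libraries were thus the lower ones at E2C and the higher ones at L2C, with no overlap at either stage. In order of the mean, the groups without injection were L2C mDKO, L2C control, E2C control, E2C mDKO, MII control and MII mDKO, and of neighbours only the MII groups overlapped.

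Zfp750 codes for a zinc finger factor known from the differentiation of skin epithelium. It was at 121 and 143 TPM in MII mDKO and 136 and 154 in MII control. It then stood at 72.9 and 55.2 TPM in E2C mDKO and 46.3 and 40.7 in E2C control, and at 15.4 and 17.7 in L2C mDKO and 3.59 and 4.71 in L2C control. Its level ran downward over the 3 stages in both genotypes, and the groups of mDKO and control overlapped at MII but not at E2C or L2C. In the 6 injected 4C libraries, which stand in a table of their own, it was between 0 and 0.630 TPM.

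Sp110 codes for a nuclear body protein related to Sp100 that is induced by interferon in immune cells. Its levels were 34.5 and 30.0 TPM in MII mDKO and 42.4 and 38.5 in MII control. They were 259 and 307 TPM in E2C mDKO and 249 and 225 in E2C control, and 562 and 523 in L2C mDKO and 504 and 485 in L2C control. Sp110 was the highest of the 6 genes at L2C, and mDKO stood below control at MII and above it at E2C and L2C, without overlap.

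Arg2 and Cml2 encode enzymes. Arg2 is the mitochondrial arginase, which turns arginine into ornithine and urea, and Cml2 is a camello-like N-acetyltransferase. Arg2 was at 20.1 and 13.2 TPM in MII mDKO and 20.0 and 10.1 in MII control, and at 231 and 287 TPM in E2C mDKO and 289 and 276 in E2C control. At L2C it was at 173 and 145 TPM in mDKO and 195 and 157 in control, so that the genotypes overlapped at all 3 stages. Cml2 was at 6.12 and 4.98 TPM in MII mDKO and 4.33 and 3.55 in MII control, at 42.0 and 35.2 in E2C mDKO and 28.4 and 27.5 in E2C control, and at 38.1 and 33.6 in L2C mDKO and 29.8 and 25.9 in L2C control. Its mDKO libraries were above both control libraries at each stage, while within a genotype the E2C and L2C libraries overlapped.

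Fgf1 encodes the acidic fibroblast growth factor, a ligand that can bind every FGF receptor. It was the lowest of the 6 genes in the E2C libraries. It stood at 7.04 and 6.67 TPM in MII mDKO and 5.71 and 6.61 in MII control, at 3.51 and 1.95 in E2C mDKO and 4.46 and 3.92 in E2C control, and at 17.3 and 14.9 in L2C mDKO and 18.6 and 16.2 in L2C control. The genotypes overlapped at L2C and not at MII or E2C. Fgf1 was thus lowest at E2C and highest at L2C in both genotypes, and no groups of different stages overlapped.

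**Figure D1:**
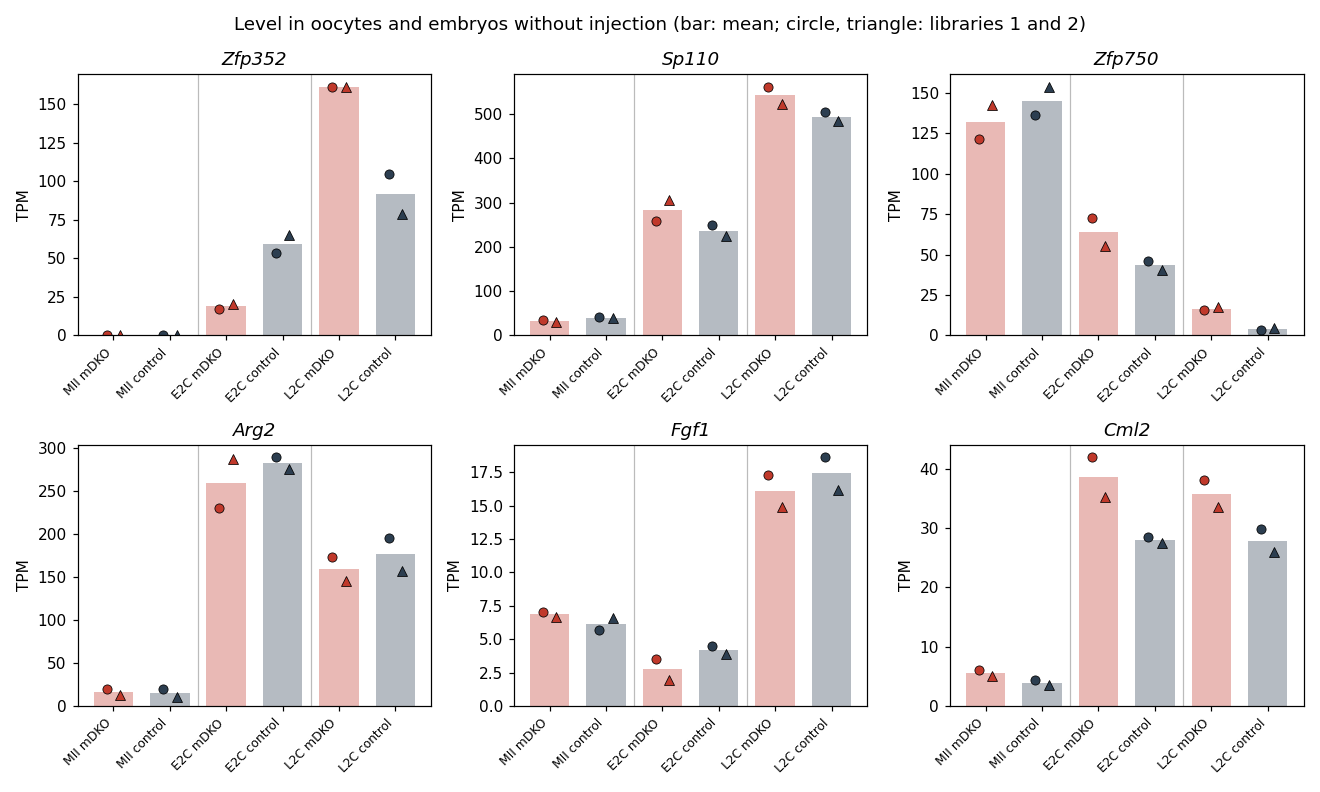
Level in TPM of the 6 genes in each library without injection, with bars for the mean of 2 libraries and a circle and a triangle for replicates 1 and 2; mDKO is left of control at each stage. Zfp352 is near 0 at MII, lower in mDKO at E2C (17.3 and 20.5 against 53.4 and 65.2) and higher in mDKO at L2C (161 and 161 against 105 and 78.7), while Zfp750 is highest at MII.

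The loss of the demethylases was checked on their own transcripts. Kdm3a was at 0.725 and 0.718 TPM in MII mDKO, against 8.08 and 8.83 in MII control, and Kdm3b at 1.75 and 1.87, against 26.6 and 25.0. At E2C Kdm3a was at 0.642 and 0.557 TPM in mDKO, against 2.59 and 2.07 in control, and at L2C at 28.4 and 26.3, against 34.1 and 43.8. Kdm3b was at 0.129 and 0.289 TPM in E2C mDKO, against 1.05 and 0.400 in E2C control, and at 0.651 and 1.79 in L2C mDKO, against 3.06 and 3.70 in L2C control. After injection, Kdm3a in mDKO embryos stood at 4122 and 2315 TPM (Kdm3aWT), 4043 and 3907 TPM (Kdm3aHA) and 0.262 and 0.411 with mCherry, against 2.12 and 1.81 in control with mCherry. In 4C embryos it was at 108 and 53.4 TPM (Kdm3aWT) and 70.5 and 161 TPM (Kdm3aHA), against 21.8 and 6.24 with mCherry. In those embryos Kdm3b was between 2.31 and 5.25 TPM. Between 7649 genes, in 4C mCherry replicate 2, and 12396 genes reached 1 TPM per library, and Pearson's r between replicates across genes lay between 0.968 and 0.995 on the log2 scale. All 12 oocyte markers were at 1 TPM or more in both libraries of each E2C and L2C group.

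In MII oocytes, the first comparison of mDKO with control, none of the 5 genes tested by limma passed an adjusted p under 0.05, where 4.25% of all tested genes did (0.845% higher and 3.41% lower). At an unadjusted p under 0.05 the count was 0 as well. Zfp352, under 1 TPM in all 4 libraries, was not tested. The log2 fold changes, taken as for all tests on TPM + 1 and given with their standard errors, were -0.32 ± 0.13 for Sp110 (adjusted p = 0.216) and 0.41 ± 0.22 for Cml2 (adjusted p = 0.321). The 3 others were between -0.14 and 0.18. Values that did not pass leave room for change: the 95% interval for Arg2 ran from -0.72 to 1.09.

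At E2C, Zfp352 fell in mDKO embryos to 31.9% of the control mean, and it was the only 1 of the 6 genes to pass. It changed by -1.60 ± 0.19 on the log2 scale (adjusted p = 0.00164), where 8.99% of all tested genes fell, 5.38% rose and so 14.4% passed. The 5 genes already present at MII did not pass. Zfp750 had 0.54 ± 0.19 (adjusted p = 0.0936), Cml2 0.45 ± 0.18 (0.140), Sp110 0.25 ± 0.14 (0.275), Arg2 -0.13 ± 0.14 (0.590) and Fgf1 -0.51 ± 0.29 (0.297). Zfp750 passed when libraries were rescaled by size factors (adjusted p = 0.0429), and Zfp750 and Cml2 passed without mDKO replicate 2 (adjusted p = 0.00149 and 0.0308). Whether the mDKO effect differed between E2C and MII could not be tested for Zfp352: at MII it was at or near 0 in both genotypes, so the fitted difference of -1.53 ± 0.26 restates the value at E2C. None of the 5 other genes passed in that comparison, where 3.88% of all tested genes did, 1.72% upward and 2.16% downward, and 2 of the 5, Sp110 (0.57 ± 0.18) and Zfp750 (0.67 ± 0.26), had an unadjusted p under 0.05.

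The same rule was applied to 51 other early 2-cell genes listed in the tables, a list chosen with earlier results of these data known. Of these, 35 started at E2C like Zfp352 and 10 were present at MII like the 5 other genes. In E2C mDKO embryos 32 of the 35 starting genes fell, with a median log2 fold change of -2.16, and 7 of the 10 genes present at MII fell, with a median of -0.87, while the median over all tested genes was -0.01. Of all tested genes 8.99% fell and 5.38% rose. The class rule used the E2C control libraries of this comparison, so the counts of the 2 classes are a description. The largest falls were of Gm2016 (-3.99 ± 0.27, adjusted p = 1.34e-04), at 11.2 and 6.08 TPM in mDKO against 125 and 171 in control, and of Zscan4f (-3.46 ± 0.24, adjusted p = 1.33e-04), a gene of the Zscan4 family of 2-cell embryos. The fall of Zfp352 was thus smaller than the median of the genes of its class.

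Summed levels of markers of other cells differed with genotype at E2C, though few single markers passed. Of the cumulus and granulosa markers tested, Serpine2 (1.06 ± 0.15) and Cyp11a1 (1.09 ± 0.28) passed as higher in mDKO. Kitl, Cyp19a1 and Tnfaip6 (-0.67 ± 0.48) did not pass. Of the sperm and spermatid markers Prm2 passed (-1.96 ± 0.22) and Odf1 did not, and of the blood cell markers Hba-a1 passed (-3.38 ± 0.38) and Lyz2 did not. The summed level of 15 cumulus and granulosa cell markers was between 198 and 237 TPM in mDKO, where 4 reached 1 TPM in both libraries and Lhcgr, Amh and Foxl2 were at 0, against 113 and 118 TPM in control, where 3 did and Amh and Inha were at 0. That of 8 sperm and spermatid markers was between 12.1 and 13.7 TPM in mDKO, where 1 reached 1 TPM in both libraries and Prm1, Tnp2, Gapdhs and Spem1 were at 0, against 38.1 and 52.6 TPM in control, where 2 did and Prm1, Tnp2 and Gapdhs were at 0. The 12 oocyte markers together were between 22334 and 23775 TPM in mDKO, against 17654 and 17733 in control. The 8 blood cell markers summed to between 1.3 and 1.94 TPM in mDKO, with 0 at 1 TPM in both libraries and Hbb-bs, Hbb-bt and Alas2 at 0, against 12.9 and 20.8 in control, with 2 and with the same genes, Hba-a2 and Ptprc at 0. Their part in the result for Zfp352 was not tested.

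At L2C, Zfp352 rose in mDKO embryos to 175% of the control mean and Zfp750 to 398%, and the 4 other genes did not pass. The log2 fold changes were 0.82 ± 0.16 for Zfp352 (adjusted p = 0.00590) and 1.77 ± 0.22 for Zfp750 (adjusted p = 9.77e-04). Over all tested genes 42.4% passed at this stage, 19.1% higher and 23.3% lower, so a call here is common. Cml2 had 0.35 ± 0.16 (adjusted p = 0.114) and Sp110, Arg2 and Fgf1 were between -0.14 and 0.13. Of the 35 other genes that start at E2C, 22 rose, 3 fell and 10 did not pass, and of the 10 genes present at MII 6 rose and 3 fell. The largest rises of that list were of Gm4027 (2.80 ± 0.21) and AF067061 (2.73 ± 0.16), and the largest falls of Dppa4 (-1.47 ± 0.11) and Dppa2 (-1.12 ± 0.13), which encode partner proteins that bind chromatin in early embryos.

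The mDKO effect on Zfp352 differed between L2C and E2C by 2.42 ± 0.26, adjusted p = 1.96e-04, and that on Zfp750 by 1.24 ± 0.26, adjusted p = 0.00577, where 25.7% of all tested genes had such a difference, 13.2% upward and 12.5% downward. For Zfp352 this joined a lower level at E2C with a higher level at L2C, and for Zfp750 a value that did not pass at E2C with a higher level at L2C. The 12 oocyte markers together were between 11308 and 12149 TPM in L2C mDKO, against 4251 and 4489 in L2C control, with none at 0. The 15 cumulus and granulosa markers summed to between 104 and 108 TPM in L2C mDKO, with 5 at 1 TPM or more in both libraries and Lhcgr and Ptx3 at 0, against 49.0 and 52.7 in L2C control, also with 5 and with Cyp11a1, Fshr, Lhcgr, Amh, Inha, Inhba and Ptx3 at 0. The 8 blood cell markers summed to 67.4 and 291 TPM in L2C mDKO, with 4 at 1 TPM or more in both libraries and Hbb-bs and Alas2 at 0, against 309 and 360 in L2C control, also with 4 and with Hbb-bs, Hbb-bt and Ptprc at 0. Sperm and spermatid markers summed to 14.3 TPM in both L2C mDKO libraries, against 16.6 and 24.7 in L2C control, with Akap4, Gapdhs and Spem1 at 0 in both groups. The part of these transcripts in the results for Zfp352 and Zfp750 was not tested.

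From E2C to L2C, the 6 genes took several courses. In mDKO embryos Zfp352 rose at L2C by 3.03 ± 0.19 (adjusted p = 2.21e-07), Fgf1 by 2.22 ± 0.22 and Sp110 by 0.94 ± 0.13, Zfp750 fell by 1.88 ± 0.18, and Arg2 (-0.70 ± 0.28, adjusted p = 0.0557) and Cml2 (-0.10 ± 0.17) did not pass. In control embryos Zfp352 rose at L2C by 0.61 ± 0.19 (adjusted p = 0.0126), Sp110 by 1.06 ± 0.13 and Fgf1 by 1.83 ± 0.22, Zfp750 fell by 3.11 ± 0.18 and Arg2 fell by 0.69 ± 0.28 (adjusted p = 0.0490). In mDKO 52.7% of all tested genes passed, 31.9% higher and 20.8% lower, and in control 65.6% did, 35.5% higher and 30.1% lower, so a call is common in both. The call for Zfp352 in control did not hold with a pseudocount of 0.1 or without replicate 1 of either stage (adjusted p between 0.100 and 0.120), and that for Arg2 was lost in every alternative run except the replicate block (adjusted p between 0.0641 and 0.223). The sources name no kit for the L2C libraries.

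**Figure D2:**
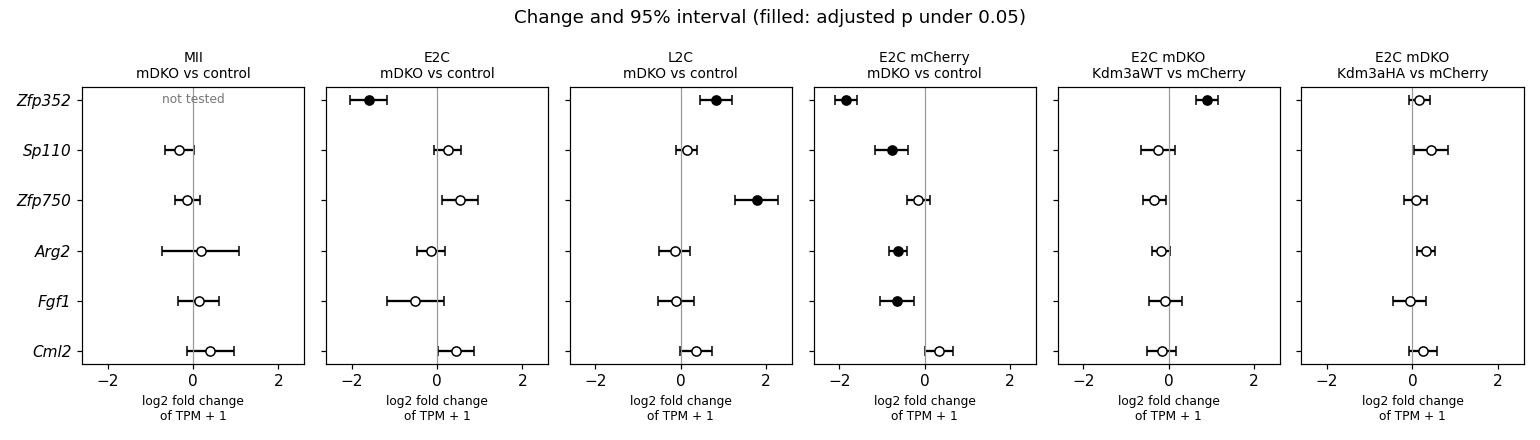
Log2 fold change of TPM + 1 for each gene in 6 comparisons, with its 95% interval from limma, where filled points passed an adjusted p under 0.05. Zfp352 is at -1.60 at E2C, 0.82 at L2C, -1.85 in the mCherry-injected embryos and 0.90 with Kdm3aWT, and Zfp352 was not tested at MII.

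Injected embryos gave a separate set of E2C libraries for the comparison of mDKO with control. With mCherry in both, Zfp352 was at 25.5 and 22.6 TPM in mDKO, against 85.1 and 93.6 in control. Sp110 was at 159 and 160 TPM in mDKO, against 271 and 277 in control, and Arg2 at 276 and 288, against 420 and 457. Every mDKO library lay below both control libraries for these 3 genes, and so it did for Fgf1, at 1.65 and 1.71 TPM in mDKO against 2.87 and 3.54 in control.

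These 4 genes fell in mDKO, where 46.9% of all tested genes passed, 26.9% higher and 20% lower: the log2 fold changes were -1.85 ± 0.11 for Zfp352 (adjusted p = 1.08e-05), -0.78 ± 0.17 for Sp110 (0.00659), -0.63 ± 0.09 for Arg2 (7.01e-04) and -0.65 ± 0.17 for Fgf1 (0.0143). Zfp750, at 53.4 and 51.2 TPM in mDKO against 53.4 and 63.3 in control, had -0.15 ± 0.12 (adjusted p = 0.314). Cml2, at 37.0 and 39.3 TPM in mDKO against 28.3 and 31.7 in control, had 0.34 ± 0.15 (adjusted p = 0.0874). The call for Fgf1 did not hold without control mCherry replicate 2 or without either mDKO mCherry library (adjusted p between 0.0748 and 0.0900). Zfp352 thus fell in both sets of E2C libraries, whereas Sp110 and Arg2 fell in the injected set and did not pass in the other. That difference between the sets was not tested. The sets were fitted separately, and injection and set cannot be told apart.

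Values near these genes moved as well. C130026I21Rik, a near copy of Sp110 among the listed genes, was at 4.54 and 6.34 TPM in mDKO mCherry, against 14.8 and 16.4 in control mCherry (-1.38 ± 0.20, adjusted p = 6.60e-04), and without injection at 11.4 and 14.7 TPM in E2C mDKO, against 30.2 and 25.7 in E2C control (-1.05 ± 0.21, adjusted p = 0.0156). Vti1b, which overlaps Arg2 on the opposite strand, was at 212 and 196 TPM in mDKO mCherry, against 53.9 and 39.8 in control mCherry (2.12 ± 0.14, adjusted p = 1.68e-05), a change opposite in sign to that of Arg2, and without injection at 227 and 206 TPM in E2C mDKO, against 259 and 215 in E2C control (-0.12 ± 0.14, adjusted p = 0.613). The 15 cumulus and granulosa markers summed to between 351 and 360 TPM in mDKO mCherry, with 7 at 1 TPM or more in both libraries and Lhcgr, Amh, Foxl2 and Ptx3 at 0, against 80.0 and 86.8 in control mCherry, with 5 and with the same genes, Inha and Inhba at 0. The 8 sperm and spermatid markers summed to 5.46 and 8.86 TPM in mDKO mCherry, with 2 at 1 TPM or more in both libraries and Tnp1, Tnp2, Gapdhs and Spem1 at 0, against 33.1 and 44.8 in control mCherry, with 1 and with Prm1, Tnp1 and Spem1 at 0. The 12 oocyte markers summed to 27422 and 27267 TPM in mDKO mCherry, against 19409 and 19802 in control mCherry, with none at 0. The 8 blood cell markers summed to 18.8 and 32.7 TPM in mDKO mCherry, with 1 at 1 TPM or more in both libraries and Hbb-bs, Hbb-bt and Alas2 at 0, against 5.36 and 8.71 in control mCherry, with 2 and with Hba-a2, Hbb-bs, Hbb-bt and Ptprc at 0. Their part in these results was not tested.

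In these libraries, which the class rule did not use, 34 of the 35 other genes that start at E2C fell in mDKO, with a median log2 fold change of -2.20, and 7 of the 10 genes present at MII fell, with a median of -0.96. The median over all tested genes was 0.04, and 20% of them fell and 26.9% rose. Zscan4a (-3.69 ± 0.19) and Zscan4f (-3.09 ± 0.19) fell most. Of the 6 genes described here, 4 fell, namely Zfp352, which starts at E2C, and 3 of the 5 present at MII.

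Adding Kdm3aWT to mDKO embryos asked whether the demethylase alone brings levels back. Zfp352 was at 45.2 and 46.0 TPM with Kdm3aWT, against 25.5 and 22.6 in mDKO with mCherry, and was the only 1 of the 6 genes to pass (0.90 ± 0.11, adjusted p = 0.00219), where 11.8% of all tested genes passed, 0.949% higher and 10.8% lower. None of the 5 genes present at MII passed, and they were between -0.33 and -0.07, where the median of all tested genes was -0.19. Sp110, at 107 and 167 TPM with Kdm3aWT, spread most between its libraries and passed as lower without Kdm3aWT replicate 2 (-0.57, adjusted p = 0.00842). Cumulus and granulosa markers summed to 250 and 255 TPM with Kdm3aWT, with 2 of 15 at 1 TPM or more in both libraries and Lhcgr, Amh, Inha and Foxl2 at 0, against 351 and 360 in mDKO mCherry. Blood cell markers summed to 0.391 and 1.45 TPM with Kdm3aWT, with 0 of 8 at 1 TPM in both libraries and Hba-a2, Hbb-bs, Hbb-bt and Ptprc at 0, against 18.8 and 32.7 in mDKO mCherry, and sperm and spermatid markers to 7.76 and 14.1 with Kdm3aWT, against 5.46 and 8.86. With Kdm3aHA the cumulus and granulosa markers summed to 237 and 252 TPM, with 3 of 15 at 1 TPM or more and Lhcgr, Amh, Inha, Foxl2 and Ptx3 at 0, and the blood cell markers to 0.0611 and 2.07 TPM. The part of these transcripts in the result for Zfp352 was not tested.

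Zfp352 stayed below control embryos. Its mean was 51.0% of control mCherry with Kdm3aWT, 30.2% with Kdm3aHA and 26.9% in mDKO with mCherry. Set against control mCherry, Kdm3aWT embryos had 5 genes lower, all but Cml2, where 46.6% of all tested genes passed, 17% higher and 29.6% lower: Zfp352 (-0.95 ± 0.11, adjusted p = 2.80e-04), Sp110 (-1.03 ± 0.17), Arg2 (-0.82 ± 0.09), Fgf1 (-0.72 ± 0.17) and Zfp750 (-0.48 ± 0.12). The median of all tested genes was -0.17 in that comparison. Without control mCherry replicate 2, Zfp750 and Fgf1 did not pass (adjusted p = 0.0629 and 0.0621), and with size factors Zfp750 did not (adjusted p = 0.0538) while Cml2 passed as higher (adjusted p = 0.0394).

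With Kdm3aHA, none of the 6 genes passed against mDKO mCherry in limma, where 10.8% of all tested genes did (1.54% higher and 9.29% lower), and 2 had an unadjusted p under 0.05. Zfp352 was at 26.6 and 27.4 TPM with Kdm3aHA, and its log2 fold change of 0.16 ± 0.11 had an adjusted p of 0.398 and a 95% interval from -0.09 to 0.42. Arg2, at 337 and 370 TPM with Kdm3aHA, had 0.32 ± 0.09 (adjusted p = 0.0558) and passed with size factors (adjusted p = 0.0126). Sp110, at 219 and 213 TPM, had 0.43 ± 0.17 (adjusted p = 0.157).

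The 2 injections were also compared directly. Zfp352 was higher with Kdm3aWT than with Kdm3aHA (0.74 ± 0.11, adjusted p = 0.0186) and Arg2 was lower, at 236 and 261 TPM with Kdm3aWT against 337 and 370 with Kdm3aHA (-0.51 ± 0.09, adjusted p = 0.0273). Of all tested genes 3.29% passed, 1.32% higher and 1.97% lower, and their median was -0.10. Sp110 (-0.69 ± 0.17, adjusted p = 0.0689), Zfp750 (-0.40 ± 0.12, 0.0919), Cml2 (-0.41 ± 0.15, 0.146) and Fgf1 (-0.01 ± 0.17, 0.987) did not pass. The calls for Zfp352 and Arg2 were lost without a filter on low TPM, without the trend and without Kdm3aWT replicate 1 or either Kdm3aHA library, with adjusted p between 0.0578 and 0.120, and that for Arg2 also with size factors (adjusted p = 0.0515). Without Kdm3aWT replicate 2, Sp110 (-1.01, adjusted p = 0.00151) and Cml2 (-0.57, adjusted p = 0.0481) passed as lower too. Kdm3aWT replicate 2 was the library with the least Kdm3a of these 4, at 2315 TPM.

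Among the other early 2-cell genes, 18 of the 35 that start at E2C rose with Kdm3aWT against mDKO mCherry and 1 fell, and 1 of the 10 present at MII rose and 2 fell. Of all tested genes 0.949% rose and 10.8% fell in that comparison. With Kdm3aHA, 2 of the 35 rose and 3 fell, and 2 of the 10 rose, where 1.54% of all tested genes rose and 9.29% fell. Between the injections, 16 of the 35 were higher with Kdm3aWT and none of the 10 passed. There 1.32% of all tested genes were higher and 1.97% lower. Zscan4a (1.75 ± 0.19) and Spz1 (1.37 ± 0.22) rose most with Kdm3aWT, and Dppa4 (-1.13 ± 0.25) and Dux (-1.06 ± 0.14), the gene of a homeodomain activator of 2-cell transcription, fell most. The comparisons against mDKO mCherry share those libraries, and the comparison between the injections shares its Kdm3aWT and Kdm3aHA libraries with them. No test of 1 class against the other was made.

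**Figure D3:**
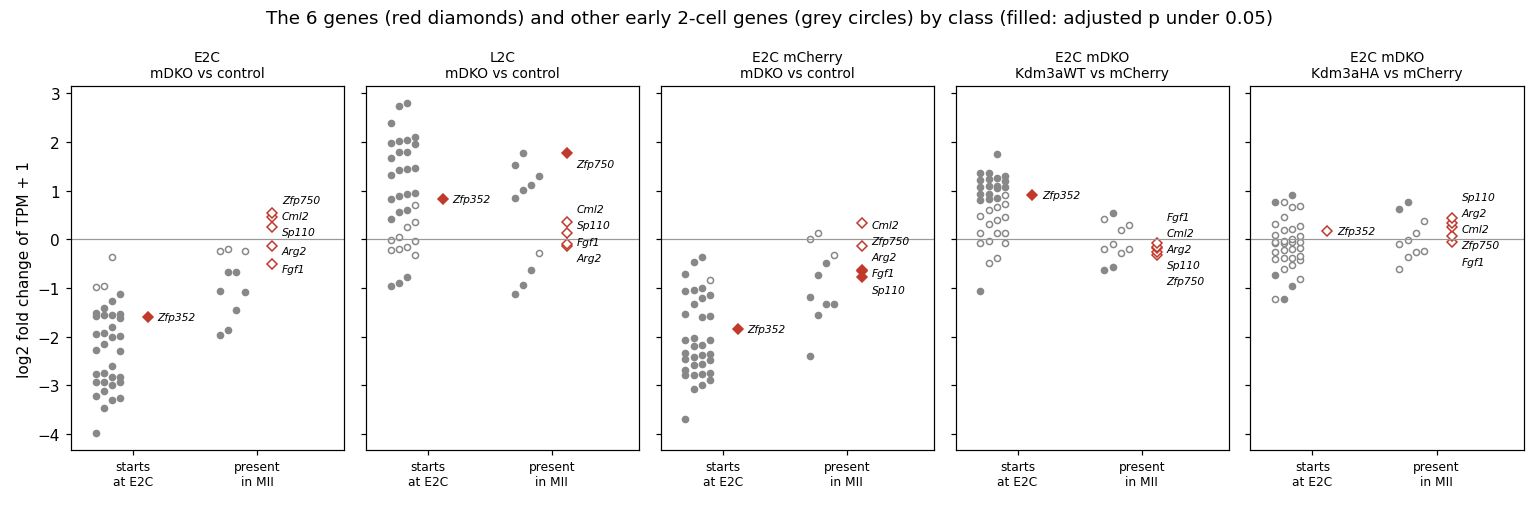
Log2 fold change of TPM + 1 in 5 comparisons for the 6 genes (red diamonds) and for the other early 2-cell genes tested (grey circles), split into genes that start at E2C and genes present at MII, where filled symbols passed an adjusted p under 0.05. Zfp352 lies among the starting genes in each comparison, at -1.60, 0.82, -1.85, 0.90 and 0.16, while the 5 others lie between -0.33 and -0.07 with Kdm3aWT.

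In 4C wild-type embryos the libraries of a group lay close for some genes, as for Sp110 and Cml2 with Kdm3aWT, and far apart for others, most of all with mCherry. Zfp352 was at 71.1 and 28.7 TPM with Kdm3aWT, at 22.5 and 50.4 with Kdm3aHA and at 45.5 and 4.33 with mCherry. Sp110 was at 923 and 832 TPM with Kdm3aWT, 896 and 907 with Kdm3aHA and 837 and 304 with mCherry. Arg2 was at 142 and 75.7 TPM with Kdm3aWT, 27.4 and 105 with Kdm3aHA and 74.6 and 32.9 with mCherry. The mCherry replicate 2 was the lowest 4C library for Zfp352, Sp110, Zfp750, Fgf1 and Cml2, though not for Arg2. It was also the library with the fewest genes at 1 TPM.

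Fgf1 was at 9.68 and 6.65 TPM with Kdm3aWT, 2.52 and 4.00 with Kdm3aHA and 3.86 and 0.338 with mCherry, and Cml2 at 12.7 and 12.0 with Kdm3aWT, 3.0 and 5.22 with Kdm3aHA and 5.52 and 2.04 with mCherry. For both, the Kdm3aWT libraries were above all others. Yet none of the 5 genes tested, nor any of the 9669 genes in the fit (0%), passed in limma. At an unadjusted p under 0.05 the counts among the 5 genes were 2 for Kdm3aWT against mCherry, 0 for Kdm3aHA against mCherry and 1 between the injections. Fgf1 had 1.83 ± 0.63 and Cml2 1.58 ± 0.56 for Kdm3aWT against mCherry (adjusted p = 0.574 for both), where the median of all tested genes was 0.44. Without mCherry replicate 1, which leaves replicate 2 as the only mCherry library, Zfp352, Sp110 and Fgf1 passed as higher with Kdm3aWT (adjusted p between 0.0306 and 0.0445) and Sp110 with Kdm3aHA (adjusted p = 0.0498).

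**Figure D4:**
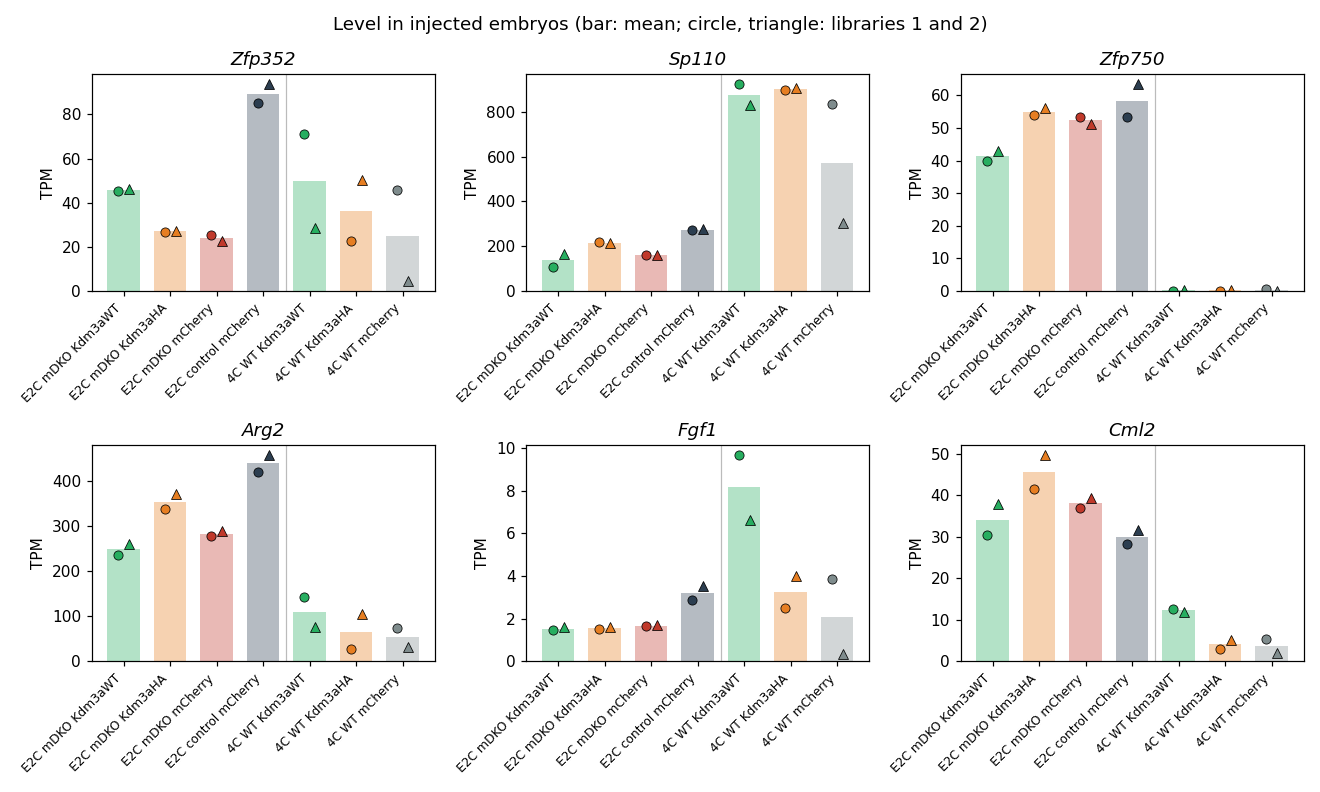
Level in TPM of the 6 genes in each injected library, with bars for the mean of 2 libraries and a circle and a triangle for replicates 1 and 2, E2C groups left of the line and 4C groups right of it. At E2C Zfp352 is at 45.2 and 46.0 with Kdm3aWT, 26.6 and 27.4 with Kdm3aHA, 25.5 and 22.6 in mDKO mCherry and 85.1 and 93.6 in control mCherry, while at 4C the mCherry libraries lie far apart for Zfp352 and Sp110.

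Genes around the 6 were taken from lists made for their pathways. The counts below stand against 14.4% of all tested genes called in E2C mDKO, 46.9% with mCherry and 42.4% at L2C. Of the Sp100 and PML nuclear body genes, 2 of the 8 tested fell in E2C mDKO and 1 rose: Sp140, another Sp100 relative, was at 6.31 and 7.06 TPM in mDKO against 16.2 and 16.7 in control (-1.18 ± 0.22, adjusted p = 0.0102), C130026I21Rik fell as given above, and the chromatin remodeller gene Atrx rose (0.87 ± 0.16). With mCherry 4 of 7 fell, among them Sp140 (-1.25 ± 0.24) and, unlike in the embryos without injection, Atrx (-0.50 ± 0.17). The median over the list was -0.24 without injection and -0.62 with mCherry, against -0.01 and 0.04 over all tested genes. Sp100 itself was between 1.35 and 1.74 TPM in mDKO mCherry and 2.32 and 3.86 in control mCherry (-0.66 ± 0.25, adjusted p = 0.0561). Of the interferon response genes, 6 of 24 were expressed enough to be tested at E2C, and none of them passed in limma without injection, while 1 of them, Xaf1 (-1.52 ± 0.44, adjusted p = 0.0511), had an unadjusted p under 0.05. With mCherry 2 of 6 rose in mDKO, Ifi27 (2.36 ± 0.33) and Irf1 (1.05 ± 0.17), and Xaf1 fell (-0.83 ± 0.22), 3 of 6 called where 46.9% of all tested genes were.

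Of the arginine and polyamine genes around Arg2, 2 of the 10 tested rose in E2C mDKO and 1 fell, where 5.38% of all tested genes rose and 8.99% fell. Odc1, which makes the polyamine putrescine from ornithine, was at 48.0 and 34.1 TPM in mDKO against 21.2 and 23.0 in control (0.85 ± 0.21, adjusted p = 0.0306), and Oaz1, which encodes its inhibitor antizyme, rose by 0.66 ± 0.12. Sat1, which acetylates polyamines, was at 71.3 and 75.5 TPM in mDKO against 231 and 230 in control (-1.64 ± 0.14, adjusted p = 2.70e-04). With mCherry, where 26.9% of all tested genes rose and 20% fell, 5 of 11 rose, Srm (2.82 ± 0.37) and Odc1 (2.12 ± 0.21) most, and Sat1 (-1.27 ± 0.16) and Azin1 (-0.48 ± 0.11) fell. At L2C, where 19.1% of all tested genes rose and 23.3% fell, 6 of 13 fell in mDKO, Arg1, the cytosolic arginase, by 1.33 ± 0.14 and Odc1 by 1.12 ± 0.17 most, while Slc7a2 (1.52 ± 0.20) and Oaz1 (0.36 ± 0.10) rose. The median over the list was 0.20 at E2C, 0.42 with mCherry and -0.54 at L2C. Arg2 passed in none of the uninjected mDKO comparisons.

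Of the FGF ligands, receptors and feedback genes, 2 of the 11 tested rose in E2C mDKO, the ligand gene Fgf8 (0.84 ± 0.19, adjusted p = 0.0242), at 28.8 and 25.5 TPM in mDKO against 15.2 and 14.2 in control, and Fibp (1.23 ± 0.30), which encodes a protein that binds FGF1 inside the cell. The receptor genes Fgfr1 and Fgfr2 were between 1.24 and 3.67 TPM in the E2C libraries without injection. With mCherry 3 of 11 rose in mDKO, Fgf8 (2.40 ± 0.21) and the feedback phosphatase gene Dusp6 (1.81 ± 0.22) most, and 3 fell, Fgf10 (-0.58 ± 0.16) and Fgfr1 (-0.51 ± 0.17) most. At L2C Fgf4, a ligand of the inner cell mass, was at 4.81 and 4.96 TPM in mDKO against 20.5 and 20.3 in control (-1.86 ± 0.19), and Etv5 fell (-1.02 ± 0.21), while Fgf8 (2.02 ± 0.35), Fibp (1.46 ± 0.28) and Dusp6 rose, 3 higher and 2 lower of 14 tested. The list's called shares were thus 2 of 11, 6 of 11 and 5 of 14, where 14.4%, 46.9% and 42.4% of all tested genes were called, so they were near the share of genes at large. Fgf1 itself had -0.11 ± 0.18 at L2C.

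Of the partners of Zfp750 in epidermis, 2 of the 9 tested were already lower in mDKO at MII, Ovol1 (-1.76 ± 0.26, adjusted p = 0.0329) and Ctbp2 (-1.05 ± 0.11, adjusted p = 0.0127), where 4.25% of all tested genes were called. Ovol1 was also the only 1 of 9 lower in mDKO at E2C (-1.30 ± 0.26), where 14.4% were called. With mCherry 2 of 8 rose and 3 fell, where 46.9% were called, and at L2C 2 of 8 rose in mDKO and 3 fell, where 42.4% were called. Trp63, which encodes p63, the activator of Zfp750 in skin, rose there (1.19 ± 0.29, adjusted p = 0.0150), at 7.78 and 4.80 TPM in mDKO against 1.82 and 2.46 in control, and Ctbp2 rose (0.62 ± 0.17). Rcor1 (-0.98 ± 0.14) and Klf4 (-0.97 ± 0.18) fell most. Trp63 and Zfp750 were both called higher in L2C mDKO and both called lower in control embryos at L2C than at E2C (Trp63 -2.45 ± 0.22). Of the camello-like genes of the Cml2 family, Cml1 was the only 1 tested, at 3.24 and 2.89 TPM in E2C mDKO and 3.75 and 2.07 in E2C control (0.09 ± 0.30, adjusted p = 0.879).

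The genes most like each of the 6 over the 12 libraries without injection were found by the root mean square difference of log2(TPM + 1) values centred per gene, among 12910 candidates, as a description without a test. For Zfp352 they were Pramef25 (0.45), Exosc2 (0.46) and Dcdc2c (0.51). Pramef25 averaged 9.76 TPM in E2C mDKO, against 32.1 in E2C control, and 81.7 in L2C mDKO, against 46.0 in L2C control, and was at 0 in all MII libraries. Among injected E2C embryos, which the measure did not use, Pramef25 averaged 25.7 TPM with Kdm3aWT, 16.7 with Kdm3aHA and 11.7 in mDKO mCherry, against 37.5 in control mCherry. Its injected E2C groups stood in the same order as those of Zfp352. At 4C the order differed: Pramef25 averaged 18.5 TPM with Kdm3aWT and 25.8 with Kdm3aHA, and Zfp352 averaged 49.9 and 36.5. Exosc2, an exosome subunit gene, averaged 87.4 TPM in E2C mDKO, against 184 in E2C control, but 2.88 TPM with Kdm3aWT, 5.65 with Kdm3aHA and 4.39 in mDKO mCherry, against 7.15 in control mCherry.

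For Zfp750 the most alike genes were Ncoa4 (0.19), Epsti1 (0.22) and Rnf219 (0.23). Epsti1 averaged 363 TPM in MII mDKO and 307 in MII control, 135 in E2C mDKO and 128 in E2C control, and 40.9 in L2C mDKO and 10.5 in L2C control. Sp110 was most like Mpc1 (0.24), Zfp958 (0.26) and Zcwpw1 (0.26), and Arg2 most like Cenpq (0.17), Apitd1 (0.22) and Ik (0.23). Cml2 was nearest to Zfp942 (0.19), Mpp6 (0.21) and Mycbp2 (0.23), and Fgf1 to Chuk (0.22), Atf1 (0.22) and Endog (0.24). Among the 6 genes themselves Sp110 and Cml2 were the most alike pair (0.61), so that the 3 genes nearest to each were nearer than any of the other 5. The values compared share their libraries and stages.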

How the data were processed

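RNA of 26 libraries was deposited by the authors as TPM per gene symbol, in 3 tables with 1 column per library. The build was mm10, and RSEM 1.3.1, STAR 2.7.10b, SAMtools 1.9 and Bowtie2 2.3.4.1 are listed, per the submitters' processing notes, with no roles. A stranded TruSeq kit served for MII and SMART-Seq kits for E2C and 4C, per the labels' protocols. TPM keeps no sequencing depth, so depth is unknown, and values are shares of 1 total. No column of another sample was left out (0).

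TPM values were tested as log2(TPM + 1) with limma 3.58.1 in R 4.3.3 (lmFit, eBayes with trend), two-sided, on genes with at least 1 TPM in at least 2 libraries of the fit, adjusted by Benjamini-Hochberg over all of them, with calls at an adjusted p under 0.05. Fold changes on this scale understate changes of low genes. Each uninjected stage had its own fit of 4 libraries, and the injected E2C and 4C libraries 1 fit per stage. Stage contrasts and differences between stages came from 1 fit over 12 libraries. The smallest exact permutation p for 2 against 2 is 0.333. Nothing in the labels says that pools of a group were separate collections, so p-values measure the spread between these pools, which may be technical. The procedure was tried on simulated data with independent noise, for the uninjected comparisons of mDKO with control only. BLAST 2.17.0 compared transcripts. Promoter windows and gene coordinates are from RefSeq, and strands and overlaps of genes from GENCODE M21, both on GRCm38.p6.

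The 6 genes and all lists were chosen with earlier results of these data known. Named besides the 6 are Kdm3a and Kdm3b, the 3 most alike genes of each, listed relatives, and from each list up to 2 called genes with the largest change per direction. Exceptions named after their values were seen are Sp100, Fgfr1, Fgfr2, Sat1 and Odc1 levels, Xaf1 without injection, Trp63 at L2C against E2C, and genes overlapping the 6. 1 blood cell marker is not reported here and was left out of that list's sums. Alternatives were a pseudocount of 0.1, no filter, size factors, no trend, all 12 libraries in 1 fit, a replicate block and leaving out each library.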

Additional observations from a re-analysis of the deposited data

Results flagged for a closer look

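The effect of mDKO on 2 of the genes differed between stages by a test of the difference itself. For Zfp352 the mDKO effect at L2C minus that at E2C was 2.42 ± 0.26 on the log2 scale (adjusted p = 1.96e-04), both mDKO libraries lying below both control libraries at E2C and above them at L2C. For Zfp750 the same difference was 1.24 ± 0.26 (adjusted p = 0.00577), with both mDKO libraries above both control libraries at each of these stages.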

How the results depend on the processing

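Of 839 fold changes of the 6 genes under the alternatives, 792 kept their direction and side of the threshold, 30 lost their call, 17 gained one and 0 called values changed sign; 39 that passed in neither setting changed sign. The fall of Zfp352 in E2C mDKO and in mDKO mCherry, its rise at L2C and with Kdm3aWT, and the rise of Zfp750 at L2C passed under each alternative run. Counts of the 6 genes that passed moved as follows, and the cause was not tested. With size factors, 1 gene was higher in E2C mDKO, 1 with Kdm3aHA against mDKO mCherry and 1 with Kdm3aWT against control mCherry (with 4 lower), 0 were lower with Kdm3aWT against Kdm3aHA, 1 was lower at L2C in control and 2 in mDKO. Without a filter on low TPM or without the trend, Kdm3aWT against Kdm3aHA had 0 higher and 0 lower, and control L2C against E2C had 1 lower. A pseudocount of 0.1 gave 2 higher and 1 lower in control L2C against E2C and 0 for the mDKO effect at E2C against MII, a difference that is no test for Zfp352. With a replicate block, 1 gene was higher in E2C mDKO, 1 in mDKO mCherry and 1 with Kdm3aHA against mDKO mCherry, and 2 were lower in mDKO L2C against E2C; the block was given as a check only, since same-numbered libraries correlated between -0.16 and 0.308 and share no more than a number in the labels. Leaving out each library in turn gave 0 to 2 higher in E2C mDKO, 3 to 4 lower in mDKO mCherry, 0 to 1 lower with Kdm3aWT against mDKO mCherry, 0 to 1 higher and 0 to 3 lower with Kdm3aWT against Kdm3aHA, 3 to 5 lower with Kdm3aWT against control mCherry, 0 to 3 higher in 4C with Kdm3aWT and 0 to 1 with Kdm3aHA, 2 to 3 higher and 1 lower in control L2C against E2C, and 0 to 1 for the mDKO effect at E2C against MII. A lone library left in a group was assumed to vary like the others. Depth is unknown, so how far low genes such as Fgf1 are limited by it cannot be said.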
